A study of Caenorhabditis elegans with 8 samples.

Results

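The fatty acid desaturase genes of Caenorhabditis elegans are fat-1 to fat-7, and their transcripts were followed in starved first-stage (L1) larvae that lacked 1 or both of 2 histone-modifying enzymes. The 7 genes were chosen by name from a RefSeq gene table, out of 39875 genes with a symbol in the deposited tables. For every gene, the transcript with the most reads, by the sum of mean levels over the 3 tables, was followed. None of the 7 passed the authors' adjusted p of 0.05 in any mutant. The smallest unadjusted p belonged to fat-3 in spr-5 larvae. Its log2 fold change there was 1.58 in the authors' deposited table, or 2.99-fold, an estimate that may be drawn towards 0.

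The animals were spr-5 mutants with the allele by101 on chromosome I, met-2 mutants with the allele n4256 on chromosome III, and a double mutant, spr-5; met-2, which carries both alleles. They were set against the wild-type strain N2. SPR-5 removes methyl groups from lysine 4 of histone H3, and MET-2 adds methyl groups to lysine 9 of the same histone. All animals were raised on OP50 bacteria at 20 °C, and total RNA came from pools of 200 to 250 whole larvae that had been born overnight in M9 buffer at 21 to 22 °C without food. Each group had 2 libraries, so each table compares 2 mutant libraries with the same 2 N2 libraries. How many generations each mutant had been kept is not given in the sources used here. The labels number the libraries but do not say that they came from separate cultures, so the spread between them may be technical. The p-values rest on standard errors that varied little among transcripts: 0.61 to 0.93 in spr-5, 0.58 to 0.91 in met-2 and 0.91 to 1.37 in the double mutant. They are therefore not a direct measure of the spread of each gene between its own libraries.

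Desaturases put double bonds into fatty acyl chains, and electrons reach them through cytochrome b5. In C. elegans, FAT-5, FAT-6 and FAT-7 act first, as Δ9 desaturases: FAT-5 mainly on palmitic acid, FAT-6 and FAT-7 mainly on stearic acid, which they turn into oleic acid. FAT-2, a Δ12 desaturase, makes linoleic acid from oleic acid, and FAT-1 is an omega-3 desaturase, an activity that mammals lack. FAT-3 (Δ6) and FAT-4 (Δ5) are front-end desaturases that, with elongases, lead to arachidonic and eicosapentaenoic acids. The intestine is a main site of fat synthesis and storage in the worm, and larvae that hatch without food live on stored lipid.

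The tables hold the authors' comparisons and no value of a single library, so each value below is 1 number per comparison, and no spread between replicates can be shown. Each listed the same 50832 transcripts, of which 29720, 29076 and 27634 had a p-value in spr-5, met-2 and the double mutant. The base means, which are the authors' means of scaled reads over the 4 libraries of a comparison, summed to 5216667, 4831475 and 4969238 in the same order. Fold changes are on the log2 scale, mutant over N2 per the names of the tables. This direction was checked on the largest rise of each table: F37A4.4, at 5.57 in the spr-5 comparison of the authors' deposited tables, had a base mean of 388.5 there and of 2.4 and 12.4 in the met-2 and double-mutant tables, which hold the same N2 libraries. That log2 fold change is smaller than these base means imply. The authors' fold changes may therefore be drawn towards 0 even at high base means. The transcripts of the mutated genes gave no check of the labels, since a mutant allele can still be transcribed. For spr-5 the log2 fold change was 0.90 (SE 0.74) in spr-5 larvae and 1.26 (SE 0.95) in double-mutant larvae, per the authors' deposited tables. For met-2 it was -0.43 (SE 0.69) in met-2 larvae and -0.45 (SE 0.97) in double-mutant larvae, per the authors' deposited tables.

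What was counted differs among the desaturase genes. For fat-3, 4 transcripts were listed, and for fat-4 and fat-6, 3 each; in each of these genes 1 had a base mean above 0 while the rest were listed at 0 in all 3 tables. In the Ensembl annotation of assembly WBcel235, the exons of the shorter transcripts of fat-3, fat-4 and fat-6 all lie within those of the longest. Only 463 of 1492 exonic bases of the longest fat-3 transcript (31.0%) belong to it alone, and the same share was 30.5% for fat-4 and 23.8% for fat-6. Across protein-coding genes, the share with a base mean of 0 in all 3 tables was 3.93% of the 14547 genes with 1 listed transcript, 16.7% of those with 2 and 34.5% of those with 4 or more. How reads shared by several transcripts were counted is not given in the sources used here, and its part in these levels was not tested. The values of fat-3, fat-4 and fat-6 may therefore rest on part of each gene. For fat-1, fat-2, fat-5 and fat-7, 1 transcript each was listed.

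fat-2 and fat-1 had by far the highest base means of the desaturase transcripts followed. The base mean of fat-2 was 6766.6 for spr-5, 7359.2 for met-2 and 6147.7 for the double mutant, in the authors' deposited tables. At least 99.6% of the tested transcripts of each table were lower. fat-1 had base means of 2444.8, 1917.2 and 2176.4 in the same order in the authors' deposited tables. fat-5 and fat-7 stood at the other end: fat-5 had 11.6, 11.8 and 4.90, and fat-7 had 2.67, 2.68 and 1.24, per the authors' deposited tables. Per kilobase of exon of the longest annotated transcript, base means in the double-mutant comparison were 4900 for fat-2, 1540 for fat-1, 4.44 for fat-5 and 1.1 for fat-7. The order fat-2, fat-1, fat-5, fat-7 held in all 3 tables, and no error can be put on it. fat-3, fat-4 and fat-6 lay between these pairs in base mean, but their base means may hold only part of the reads of each gene. They were left out of the order per length because the length that was counted is uncertain.

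**Figure D1:**
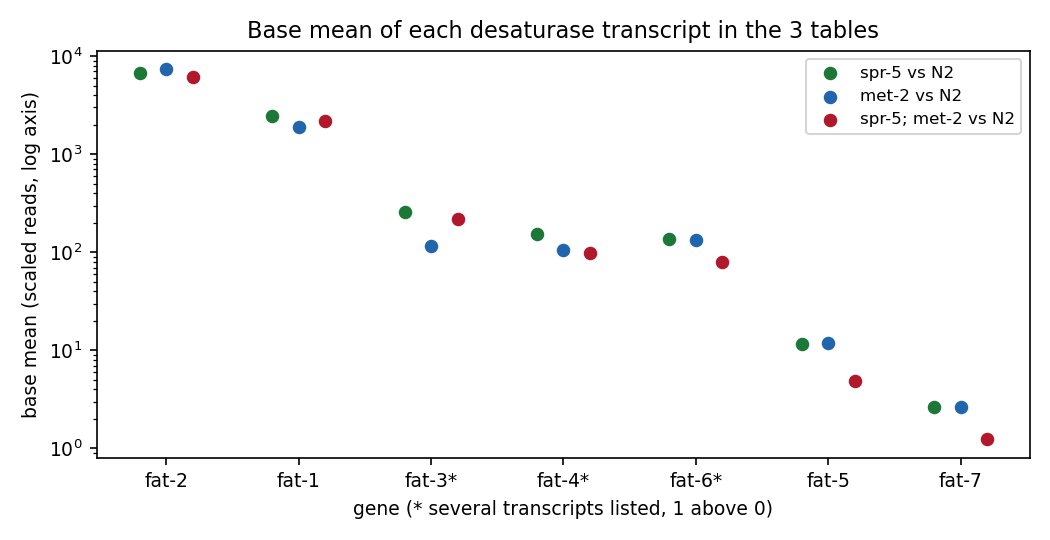
Base mean (scaled reads, log axis) of the 1 transcript that stands for each desaturase gene, in the spr-5 (green), met-2 (blue) and double-mutant (red) comparisons with N2; a point is the authors' mean over 4 libraries and has no error. fat-2 sits at 6147.7 to 7359.2 and fat-7 at 1.24 to 2.68; genes with an asterisk have several listed transcripts of which 1 is above 0.

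The Δ9 desaturases fat-5, fat-6 and fat-7, which make the monounsaturated fatty acids, did not pass the test in any mutant. For fat-6, the change on the log2 scale was 0.44 (SE 0.82) in spr-5 larvae, 0.53 (SE 0.77) in met-2 larvae and -0.50 (SE 1.02) in double-mutant larvae, per the authors' deposited tables. The sign was thus positive in both single mutants and negative in double-mutant larvae, with every 95% interval (from the authors' SE, normal approximation) spanning 0. For fat-5 the log2 fold change was 0.07 (SE 0.90) in spr-5 and 0.16 (SE 0.88) in met-2 in the authors' deposited tables. In the double mutant it was -1.85 (SE 1.34, unadjusted p 0.168) in the authors' deposited table, the furthest below 0 of the 21 desaturase values, with a 95% interval from -4.48 to 0.78. That value rests on a base mean of 4.90, and the authors gave it no adjusted p. In the spr-5 and met-2 comparisons, with the same N2 libraries, the base mean of fat-5 was 11.6 and 11.8. A base mean pools mutant and N2 libraries, so a lower level in the double mutant would itself lower it, which was not tested. At so few reads the fold change may be drawn towards 0. fat-7 had 0.09 (SE 0.74), 0.15 (SE 0.76) and -0.51 (SE 1.2) in spr-5, met-2 and double-mutant larvae, as the authors' deposited tables give them. At a base mean of at most 2.68 a fall or a modest rise in fat-7 was not detectable at this depth. A large rise would have raised the base mean. The authors gave fat-7 no adjusted p in met-2 or in double-mutant larvae.

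All 3 of these genes had a fold change above 0 in both single mutants and below 0 in double-mutant larvae. The comparisons share the N2 libraries, so these signs are not independent. The median log2 fold change of all transcripts had the same signs at the low levels of fat-5 and fat-7: it was 0.08 in spr-5, 0.04 in met-2 larvae and -0.31 in double-mutant larvae for base means under 5, and 0.04, 0.01 and -0.21 for those of 5 to 20. fat-6 and fat-7 encode closely similar proteins, and their values are uncertain where reads could match both. The last bases of fat-5 overlap twk-42, a potassium channel gene on the other strand, over 28 of 1104 exonic bases, and whether strand was used in counting is not given in the sources used here.

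fat-2 and fat-1 carry out the next steps towards polyunsaturated fatty acids. The log2 fold change of fat-2 was -0.50 (SE 0.78) in spr-5, -0.14 (SE 0.74) in met-2 larvae and -0.48 (SE 0.97) in double-mutant larvae, per the authors' deposited tables. All 3 values were below 0, and none passed the test. For fat-1 the values were 0.36 (SE 0.74), -0.03 (SE 0.68) and 0.39 (SE 0.93) in the same order in the authors' deposited tables. These 2 transcripts had the most reads, yet their standard errors were close to the medians over transcripts of like level. In spr-5 the median was 0.75 for base means of 500 to 3000 and also 0.75 for those above. The 95% interval of the fold change of fat-1 in met-2 ran from 0.390 to 2.45, the narrowest for that gene. It is built on the authors' fold change, which may be drawn towards 0, so it does not exclude a larger ratio of levels. fat-1 and fat-2 are neighbouring protein-coding genes on chromosome IV, on the same strand.

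fat-3 had the highest log2 fold change of the 7 genes in spr-5 and in double-mutant larvae. In spr-5 the log2 fold change was 1.58 (SE 0.78) in the authors' deposited table, or 2.99-fold with a 95% interval from 1.04 to 8.60. Its unadjusted p was 0.0416 in the authors' deposited table and ranked 293 of 29720, and its adjusted p was 1.00. In the double mutant the log2 fold change was 1.69 (SE 0.97, unadjusted p 0.083, adjusted p 1.00) in the authors' deposited table, or 3.23-fold with an interval from 0.858 to 12.1. In met-2 it was 0.45 (SE 0.72, unadjusted p 0.537) in the authors' deposited table. Its base mean was 258.0 for spr-5, 115.8 for met-2 and 221.3 for the double mutant, in authors' deposited tables that were normalized separately. The folds of 2.99 and 3.23 come from the authors' fold changes, which may be drawn towards 0, so they may understate ratios of levels. Whether fat-3 differs between mutants was not tested, and the tables hold no test of it.

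fat-4, which acts after fat-3 in the pathway and lies next to it on chromosome IV on the same strand, did not share these values. Its log2 fold change was 0.27 (SE 0.80) in spr-5, -0.46 (SE 0.74) in met-2 larvae and -0.56 (SE 1.00) in double-mutant larvae, per the authors' deposited tables. T13F2.2, the coding gene on the other side of fat-4 and on the opposite strand, had 2.22 (SE 0.89, unadjusted p 0.0124, adjusted p 1.00) in spr-5, 0.28 (SE 0.87) in met-2 larvae and 1.63 (SE 1.12) in double-mutant larvae, per the authors' deposited tables. It was looked up for its position and did not pass the test. dct-15, on the far side of fat-3, had a base mean of at most 0.462, too low for a fall or a modest rise to be seen.

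**Figure D2:**
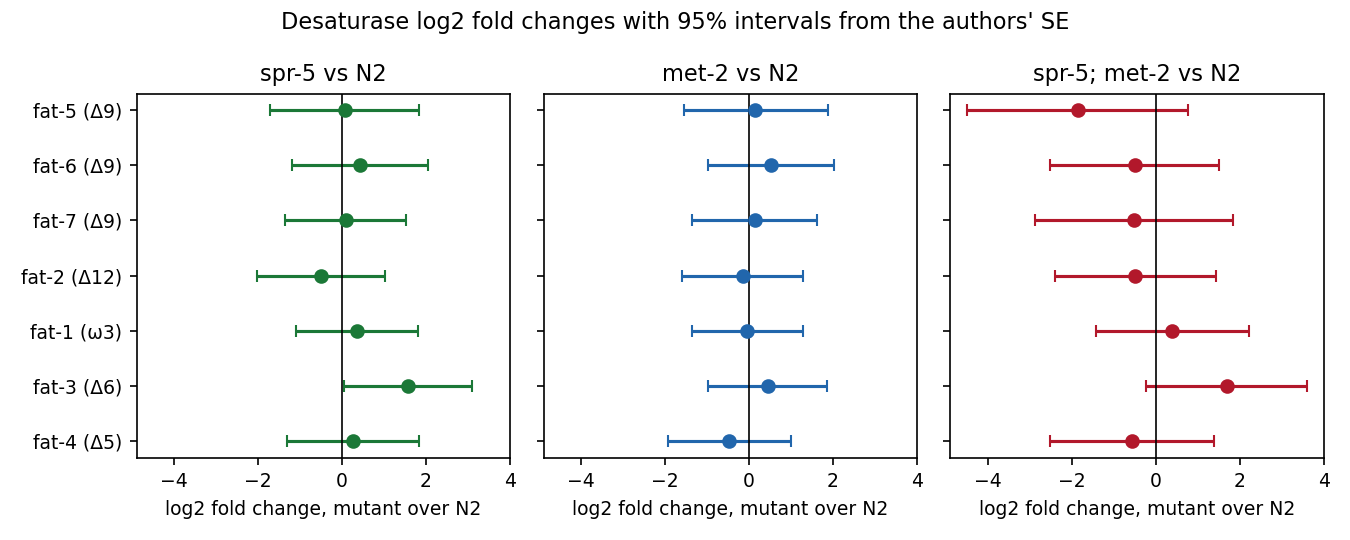
Log2 fold change (mutant over N2) of the 7 desaturase genes in spr-5, met-2 and double-mutant larvae; points are the authors' values and bars are 95% intervals from the authors' SE. The bars span 0 for 20 of the 21 values, the exception being fat-3 in spr-5 (1.58, from 0.06 to 3.10).

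Over the family, the authors' DESeq2 test called 0 of 7 genes in spr-5, where 0.0101% of the transcripts with an adjusted p were called. It called 0 of 7 in met-2, of which 6 had an adjusted p (0.0647% called in all), and 0 of 7 in double-mutant larvae, of which 5 had one (0.709% called in all). At an unadjusted p under 0.05, 1 of 7 passed in spr-5, 0 of 7 in met-2 larvae and 0 of 7 in double-mutant larvae. The shares over all transcripts at that threshold were 1.15%, 1.42% and 2.82%. Each share is below the 0.05 of transcripts that p-values would give with no change, so these tests were conservative. The adjusted p was 1.00 for each of the 18 values that had one.

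The median log2 fold change of the 7 genes was 0.27 in spr-5, 0.15 in met-2 larvae and -0.50 in double-mutant larvae, computed from the authors' deposited tables. Over all transcripts with a p-value the medians were 0.06, 0.01 and -0.17. Among base means of 50 or more, the 5 remaining genes had medians of 0.36, -0.03 and -0.48, against -0.02, -0.02 and 0.08 for all transcripts at that level. Above 0 were 6 of the 7 genes in spr-5, 4 in met-2 larvae and 2 in double-mutant larvae, beside 54.4%, 51.0% and 43.2% of all transcripts with a p-value. Among the 7 genes, all 21 pairs of intervals overlapped in each mutant, so the order of the genes by fold change is not resolved in any of them.

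The precision of these comparisons leaves room for changes of moderate size. Only the 5 genes with base means of 50 or more (fat-1, fat-2, fat-3, fat-4 and fat-6) were read for this, since the intervals of fat-5 and fat-7 rest on few reads. On the log2 scale the smallest called changes were 4.38 for spr-5, 3.22 for met-2 and 3.57 for double-mutant larvae, per the authors' deposited tables. They are the smallest among 3, 9 and 87 called transcripts and are not a limit of detection. The intervals of 5 of the 5 genes in spr-5, 5 in met-2 larvae and 4 in double-mutant larvae stayed inside that size in both directions, fat-3 being the exception. Intervals wholly within 4-fold in both directions were those of 2 genes in spr-5, fat-1 and fat-4, of 4 in met-2, all but fat-6, and of 0 in double-mutant larvae. None of the 5 lay wholly within 2-fold in any mutant. These bounds are those of the authors' fold changes, which may be drawn towards 0.

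Set against transcripts of like base mean, 18 of the 21 desaturase values lay within the central 95% of log2 fold changes. fat-3 in spr-5 was higher than 98.3% of 3453 transcripts with base means of 100 to 500. fat-2 in spr-5, at -0.50, was higher than 1.8% of 278 transcripts with base means over 3000. fat-5 in double-mutant larvae was higher than 0.6% of 13195 transcripts with base means under 5. With its base mean of 4.90, fat-5 sits at the upper edge of that range, and its value of -1.85 would lie inside the central 95% of the next. These shares describe the spread of the tables and are not tests.

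**Figure D3:**
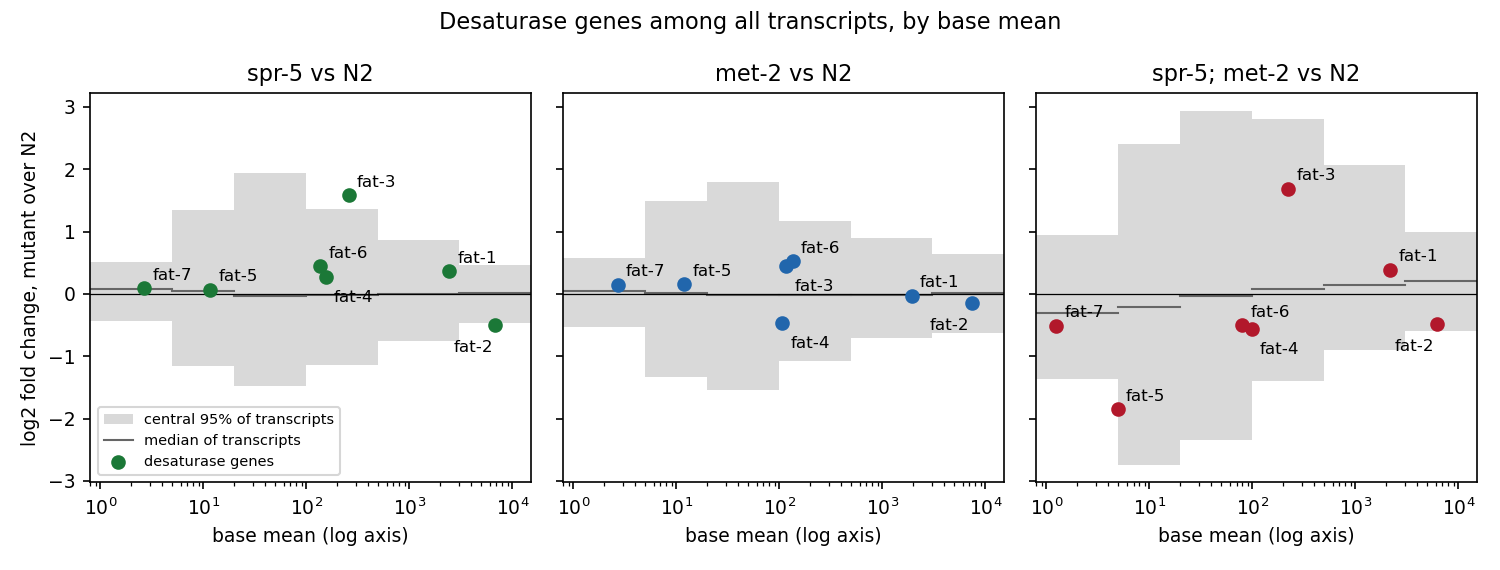
Log2 fold change (mutant over N2) against base mean (log axis) for the 7 desaturase genes in each comparison; grey boxes hold the central 95% of all transcripts with a p-value in each range of base mean, and the grey line is their median. fat-3 lies above its box in spr-5 (1.58 against an upper edge of 1.36) and inside it in double-mutant larvae (1.69 against 2.80).

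Other genes of lipid metabolism were taken from 8 lists, which held 143 genes, of which 129 were in the tables. Calls are counted below over genes with an adjusted p, since the others could not pass. In spr-5, 0 of 117 such genes passed, where 0.0101% of all transcripts did, and in met-2 0 of 94 (0.0647%). In the double mutant 1 of 85 passed (0.709%), and it was lower. Unadjusted p-values under 0.05 belonged to 2 of 117 genes in spr-5, fil-1 (higher) and vit-5 (lower), beside 1.15% of all transcripts. They belonged to 0 of 118 in met-2 (1.42%) and to 2 of 115 in double-mutant larvae (2.82%), vit-4 and vit-5, both lower. The gene called in double-mutant larvae was vit-5, which encodes a vitellogenin, a yolk lipoprotein made by the adult intestine. It fell by 4.25 on the log2 scale (SE 1.04, adjusted p 0.00947) in double-mutant larvae, per the authors' deposited table. For vit-5 the values were -1.57 (SE 0.77, unadjusted p 0.0421, adjusted p 1.00) in spr-5 and -0.03 (SE 0.86) in met-2 in the authors' deposited tables. vit-4 had -3.66 (SE 1.35, adjusted p 0.31) in double-mutant larvae, per the authors' deposited table. vit-3, vit-4 and vit-5 are near-identical, and their values are uncertain where they share reads.

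Among genes of fatty acid synthesis and elongation, 0 of 13, 11 and 10 passed in spr-5, met-2 and double-mutant larvae. Medians here and below are over the genes with a p-value, 13 in this list, and were -0.06 in spr-5, 0.09 in met-2 larvae and -0.24 in double-mutant larvae. acly-2, an ATP citrate lyase that supplies acetyl-CoA, had 1.76 (SE 0.93, unadjusted p 0.0589, adjusted p 0.915) in double-mutant larvae, per the authors' deposited table. elo-2, an elongase of palmitic acid, had -0.91 (SE 0.96) there, and hpo-8, a dehydratase of the elongation cycle, had -0.94 (SE 0.99), per the authors' deposited table. fasn-1, the fatty acid synthase, had base means of 3673 in spr-5, 3744 in met-2 larvae and 4610 in double-mutant larvae, with log2 fold changes of -0.14, 0.09 and 0.63 in the authors' deposited tables.

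Of 11 regulators of the desaturases, 10 were in the tables, and mdt-15, nhr-80 and nhr-66 were listed at 0, so they give no fold change. A level at or near 0 need not mean that a gene was silent. Genes with several listed transcripts stood at 0 more often, and how shared reads were counted is not given in the sources used here. Of the 7 with a p-value, 0 of 7, 6 and 5 passed, with medians of 0.00 in spr-5, -0.10 in met-2 larvae and 0.40 in double-mutant larvae. sbp-1, the worm SREBP that activates fat-5, fat-6 and fat-7, had log2 fold changes of -0.17, -0.14 and 0.40 in the same order in the authors' deposited tables. For scp-1, the SREBP chaperone, it was 0.55 (SE 0.99) in double-mutant larvae, and for daf-16, the FOXO factor of insulin signalling, 0.67 (SE 0.97), per the authors' deposited table. nhr-49, a nuclear receptor that activates fat-7, had a base mean of at most 2.27 for its most abundant transcript. iglr-2 and paqr-2, whose proteins act together in membrane fluidity upstream of fat-7, had -0.47 and -0.20 in double-mutant larvae, per the authors' deposited table.

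The 3 listed genes of cytochrome b5 electron transfer had negative log2 fold changes in double-mutant larvae: -1.3 (SE 1.14) for cytb-5.1, -0.57 (SE 0.95) for hpo-19 and -0.42 (SE 1.35) for T05H4.4 in the authors' deposited table. None of the 3 passed in any mutant. The median of the list was -0.27 in spr-5 and -0.42 in met-2. Fatty acid oxidation had 0 calls among 31, 25 and 22 genes, with medians of -0.06 in spr-5, 0.04 in met-2 larvae and -0.37 in double-mutant larvae. Its members with the smallest p in double-mutant larvae were the peroxisomal genes maoc-1 (-1.43, SE 0.98), acox-1.3 (-1.62, SE 1.35) and acox-3 (-1.25, SE 1.18) in the authors' deposited table. The value of acox-1.3 rests on a base mean of 8.89 and had no adjusted p.

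Acyl-CoA synthetases had 0 calls among 20, 14 and 13 genes, with medians of 0.14, 0.06 and -0.24 in spr-5, met-2 and the double mutant. Those with the smallest p in double-mutant larvae were acs-7, acs-12 and acs-14, at -0.86, 0.75 and -0.77 in the authors' deposited table. Fat storage and lipolysis had 0 calls among 18, 14 and 13 genes, with medians of 0.06, 0.15 and 0.04. In that list fil-1, a lipase induced by fasting, had 2.08 (SE 0.80, unadjusted p 0.00926, adjusted p 1.00) in spr-5 in the authors' deposited table, and it was named after its value was seen. atgl-1, the triglyceride lipase of lipid droplets, had 0.94 (SE 1.00) in double-mutant larvae, fitm-2 1.00 (SE 1.01) and lipl-3 -1.04 (SE 1.22) in the authors' deposited table. The value of lipl-3 rests on a base mean of 2.18 and had no adjusted p. Phosphatidylcholine synthesis had 0 calls among 15, 12 and 10 genes, with medians of -0.07, 0.07 and 0.08. Its choline kinase genes ckb-1, ckb-3 and cka-2 had -2.30 (SE 1.21, adjusted p 0.906), 1.74 (SE 1.22) and -1.46 (SE 1.34) in double-mutant larvae, per the authors' deposited table. The value of cka-2 rests on a base mean of 8.98 and had no adjusted p. Lipid carriers and yolk proteins, the list that holds vit-4 and vit-5, had medians of -0.33, -0.19 and -0.76 over 11 genes in each table. lbp-6, a fatty acid binding protein gene, had -1.17 (SE 1.24) in double-mutant larvae, per the authors' deposited table.

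**Figure D4:**
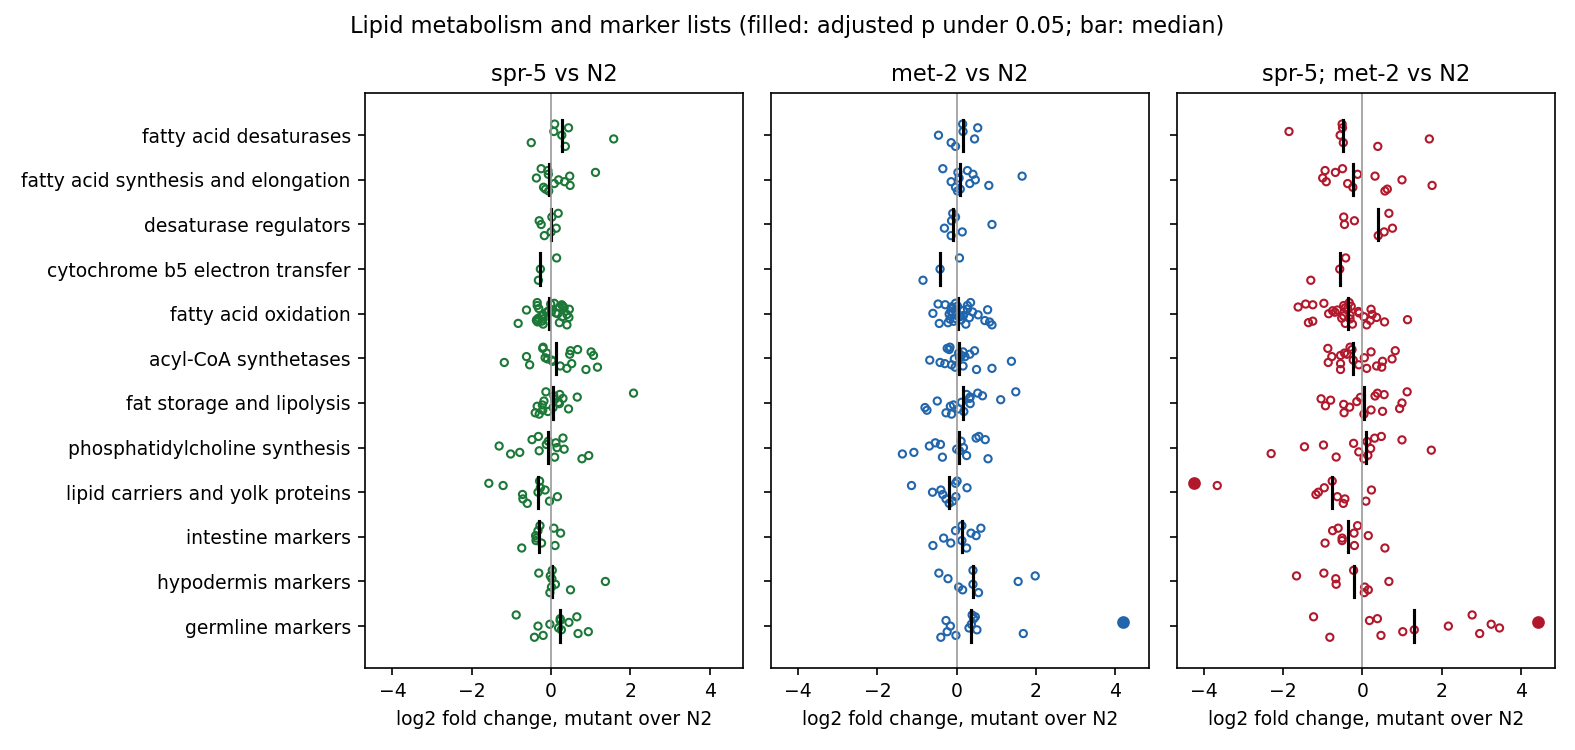
Log2 fold change (mutant over N2) of the genes with a p-value in the desaturase family, in 8 lipid metabolism lists and in 3 marker lists, for each mutant; points are genes, filled where the authors' adjusted p is under 0.05, and bars are medians. The filled points are vit-5 in double-mutant larvae (-4.25) and syp-1 in met-2 (4.20) and in double-mutant larvae (4.42), and no desaturase point is filled.

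Markers of 3 tissues in the larvae were read beside the desaturases, since in whole animals fewer cells of a type and less RNA per cell cannot be told apart. All 10 intestine markers had reads, and their base means summed to 24900 for spr-5, 29300 for met-2 and 17800 for the double mutant, most of it from the protease gene asp-1. Their median log2 fold change was -0.31 in spr-5, 0.13 in met-2 larvae and -0.36 in double-mutant larvae, with 0 of 10, 9 and 9 called, beside desaturase medians of 0.27, 0.15 and -0.50. ges-1 (-0.94, SE 1.00), pept-1 (-0.75, SE 1.03) and asp-1 (-0.61, SE 1.03) had the smallest p in double-mutant larvae, per the authors' deposited table, and elt-2, the GATA factor of intestinal fate, had 0.57. Of 11 hypodermis markers elt-1 and elt-3 were listed at 0, and the summed base means were 324, 655 and 231. The medians were 0.02, 0.41 and -0.22 with 0 of 9, 7 and 4 called. The largest part of the met-2 sum was sqt-3, at 361.8. In met-2, wrt-2 and dpy-7 had base means of 71.63 and 17.77, well above those in the other comparisons. Their log2 fold changes were still only 0.41 each (SE 0.62) in the authors' deposited table, and single libraries could not be inspected. In the double mutant 5 of the 9 with a p-value were below 0 and 4 above, from -1.66 for sqt-3, a cuticle collagen gene, to 0.67 for dpy-10, another, per the authors' deposited table. bli-1 had -0.97 and dpy-7, on a base mean of 0.545, had -0.66 there, and sqt-3 had 1.98 (unadjusted p 0.00841, adjusted p 1.00) in met-2 larvae, per the authors' deposited tables. Germline markers had summed base means of 390, 1000 and 1940 and medians of 0.23, 0.37 and 1.31 over 13 genes, with him-3 listed at 0 and 0 of 13, 1 of 10 and 1 of 9 called. Beside the counts of the 3 marker lists, 0.0101%, 0.0647% and 0.709% of all transcripts were called. At an unadjusted p under 0.05, 0, 2 and 6 of the 13 germline markers passed, all higher, beside 1.15%, 1.42% and 2.82% of all transcripts. In the double mutant 11 of the 13 were above 0 and 2 below, the lowest being nos-2 (-1.23, base mean 2.10). syp-1, which builds the synaptonemal complex, rose in met-2 (4.20, adjusted p 6.67e-05) and in double-mutant larvae (4.42, adjusted p 0.00227) in the authors' deposited tables. htp-3 and htp-1, of the meiotic chromosome axis, had 3.25 (adjusted p 0.0768) and 3.46 (adjusted p 0.127) in double-mutant larvae, per the authors' deposited table. Markers listed at 0 need not have been silent, since how reads shared by several transcripts were counted is not given in the sources used here. The part of these tissues in the desaturase values was not tested.

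The genes with the nearest pattern were sought by Euclidean distance over the 3 log2 fold changes, among 5451 genes whose base mean was 50 or more in all 3 tables. For fat-5, the desaturase furthest from 0 in double-mutant larvae, they were cyp-34A10 (distance 0.23), W01A11.13 (0.30) and faah-3 (0.35). With base means of 11.6, 11.8 and 4.90, fat-5 itself lay below the level asked of these genes. Its fold changes may be drawn towards 0 more than theirs, so the distances compare unlike values. cyp-34A10 had -0.07, 0.24 and -2.01 in spr-5, met-2 and the double mutant in the authors' deposited tables. For fat-3, added after its values were seen, they were puf-8 (distance 0.23), ptr-2 (0.33) and lgc-43 (0.40). puf-8, a translational regulator of the germline, had 1.48, 0.30 and 1.84 in the same order in the authors' deposited tables. A likeness over 3 comparisons that share the N2 libraries is a description alone.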

How the data were processed

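RNA from starved L1 larvae was sequenced in 8 libraries, 2 in each of 4 groups taken from the sample titles. The authors used FastQC, Trimmomatic, featureCounts and DESeq2 2.11.40.2 with build ce10, per the submitters' processing notes. The aligner, the annotation, the settings and the use of strand are not given in the sources used here. The authors deposited 3 tables without headers, each a mutant against N2. Their columns were read in the usual order of the authors' DESeq2 output. The base mean deposited by the authors is a signal value, a mean of scaled reads. The next columns deposited hold the log2 fold change, its standard error and, as a Wald score, the quotient of both. Then come the authors' p-value and their adjusted p-value, which is absent for many transcripts with few reads. Standard errors reached only 0.93, 0.91 and 1.37, and at a base mean under 5 the median absolute log2 fold change was 0.20, 0.17 and 0.37 in spr-5, met-2 and the double mutant. Fold changes of transcripts with few reads lie near 0 and may understate a change. Among base means of 50 or more the median standard error was 0.80, 0.74 and 1.01 in the same order. Fold changes there may be understated too, as for F37A4.4, and the folds and intervals given for the desaturases share this limit. The tables were normalized separately, and the number of per-sample columns left unused was 0.

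Gene symbols were matched through RefSeq's table for WBcel235, for 46074 of 50832 transcripts (90.6%). Lengths, strands and neighbours came from Ensembl's annotation of that assembly, and no coordinate is given because the builds differ. Calls are the authors' adjusted p under 0.05. Intervals of 95% are normal approximations from the authors' SE. Benjamini-Hochberg adjustment was recomputed as an alternative and tested on simulated data (Python 3.11.15, pandas 2.3.3, scipy 1.17.1). The members and lists were chosen with earlier results of these data known. Named genes are the 7 desaturases, list genes called in any mutant, and the 3 of each list with the smallest p in the double mutant; others named were chosen after their values were seen, except neighbours, taken by position.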

Additional observations from a re-analysis of the deposited data

How the results depend on the processing

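No desaturase call depended on the threshold on the adjusted p: the count stayed at 0 of 7 in each mutant at an adjusted p under 0.01, with Benjamini-Hochberg adjustment recomputed over every p-value, and with the transcript of largest base mean in each table, and it was 0 of 5 among base means of 50 or more. At an unadjusted p under 0.05 it was 1 in spr-5, fat-3, and 0 in both other mutants. With counts this small, these alternatives say little about stability. The median of the 7 genes became 0.36, -0.03 and -0.48 in spr-5, met-2 and the double mutant with a base mean of at least 50, moves smaller than the standard error of a gene, although the sign in met-2 changed. The fold changes of single genes could not move under these alternatives, since each gene has 1 transcript above 0 and the rest change only the threshold. The other transcripts of fat-3, fat-4 and fat-6 were listed at 0 and gave no value. The call of vit-5 held at 0.01, and in the recomputation its Benjamini-Hochberg adjusted p was 0.0213; these 2 alternatives were added after the data were seen. No paired analysis was possible because deposited tables carry no replicate numbers and no values of single libraries, and for the same reason leaving out each replicate and the planned second count test were not run.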
